A study of Homo sapiens with 2 samples.

Results

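FOXA1, GATA3, SPDEF, AZGP1 and FKBP5 were followed as a group of 5 genes tied to the luminal and apocrine identity of breast epithelium and to its androgen response. They were chosen by name, and all 5 had a row among the 16251 genes of the count matrix. The cells were MDA-MB-453, a long-established line of human breast cancer that the labels call triple-negative and wild type, and which is known for its luminal, androgen-responsive type. Over 24 hours cultures received either water as the vehicle or 10 ng/ml of the inflammatory cytokines IL1β and TNFα. RNA molecules of single cells were then counted from their 3′ ends by unique molecular identifier (UMI), in 1 library per condition. Differences between the conditions therefore had no replicate check and were given no p-value. All intervals are exact 95% intervals of the counting error and say nothing of the spread from culture to culture. Those of levels and ratios take each UMI as independent, so they leave out the spread from cell to cell as well.

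Steroid hormone receptors are kept ready for their hormones by chaperones and, once bound, move to the nucleus and bind DNA. FOXA1 is a pioneer factor that opens chromatin for steroid receptors, and GATA3 and SPDEF are transcription factors of luminal breast cells. AZGP1 encodes zinc-alpha-2-glycoprotein, a secreted protein that marks apocrine and androgen-responsive cells, and FKBP5 encodes a co-chaperone of steroid receptors that is a classical target of androgens and glucocorticoids. Apocrine breast tumors keep FOXA1 and secreted proteins such as PIP (prolactin-induced protein) while lacking the estrogen receptor.

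The vehicle library held 2822 cells and 58587996 UMIs, and the cytokine library 3163 cells and 69592446 UMIs. The median depth was 20249 UMIs per vehicle cell and 21508 UMIs per cytokine cell. By the deposited phase calls, G1 cells made up 36.6% of the vehicle library and 88.5% of the cytokine library, and only 40 cytokine cells were in G2M. On the list of NF-κB response genes, 10 of 10 measured genes were higher by 2-fold or more with the cytokines. Of these, only NFKBIA, SOD2 and NFKBIE reached the limit for a measured gene, given next, in the vehicle library. The others passed it only through the cytokine library, where they were high. Of 9192 genes at 5 or more UMIs per 1000000 (CPM) in at least 1 library, 394 (4.29%) were higher by 2-fold or more with the cytokines and 688 (7.48%) lower by as much, with the interval on the same side. The median log2 ratio of cytokine over vehicle was −0.20 over these genes, so each member's ratio is also given relative to that shift.

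The luminal type of the cells was checked against marker genes. Of 15 luminal structural genes, 14 were measured. KRT18, a keratin of luminal cells, stood at 688 and 1457 CPM, and the epithelial adhesion gene EPCAM at 227 and 242 CPM. Not all of the list was high. CDH1 had 4.75 CPM with vehicle and 5.93 CPM with the cytokines, and MUC1, the gene not measured, 0.034 and 0.704 CPM. Of 17 basal and myoepithelial markers, 10 were in the matrix and only LAMB3 (0.495 to 6.51 CPM, the 1 gene of the list called higher) and ITGB4 (9.27 to 6.44 CPM) reached 5 CPM. The summed level of the 4 immune and blood markers in the matrix was 1.69 CPM with vehicle and 2.43 CPM with the cytokines, and that of the 1 endothelial marker at most 0.158 CPM. Of the mesenchymal and fibroblast markers, 4 of 12 were in the matrix and COL1A1 alone reached 5 CPM, at 20.9 CPM with vehicle and 20.1 CPM with the cytokines.

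The 5 members did not move as a block. AZGP1 was 5.87-fold higher in the cytokine library, and it was the only member to differ 2-fold. SPDEF was slightly higher, GATA3 and FKBP5 were lower, and FOXA1 was close to its vehicle level. Past 2-fold, 1 of 5 members was higher and 0 of 5 lower, beside 4.29% and 7.48% of all measured genes.

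**Figure D1:**
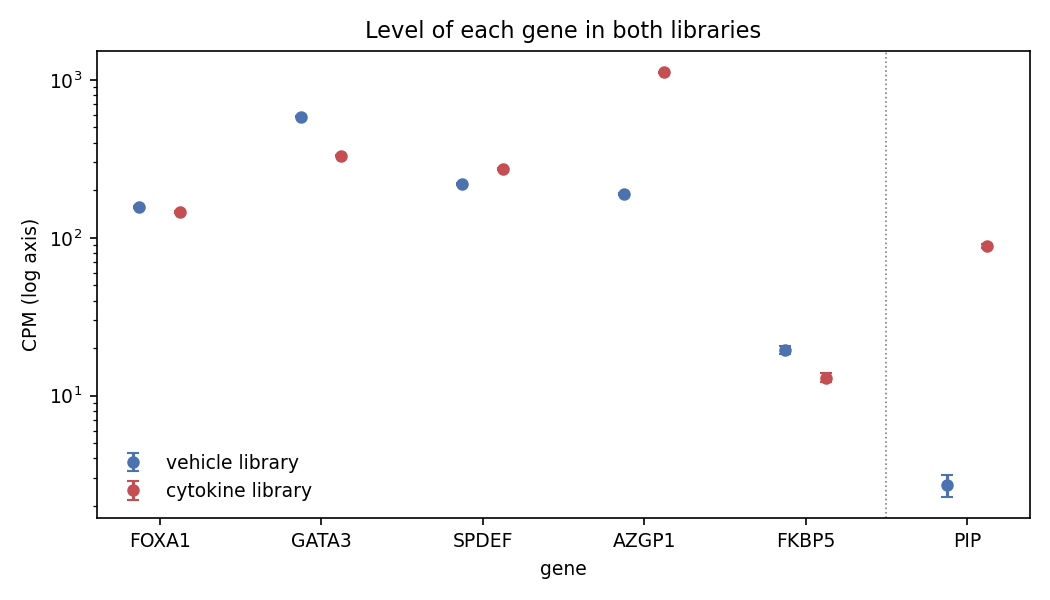
UMIs per 1000000 (CPM, log axis) of the 5 members, with PIP to the right of the dotted line, in the vehicle and the cytokine library; bars are exact 95% Poisson intervals, most of them narrower than the points. AZGP1 went from 190 to 1115 CPM and PIP from 2.70 to 88.8 CPM, while FOXA1 stood at 157 and 146 CPM.

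Among the transcription factors, GATA3 was the most abundant member in the vehicle library. Its gene lies on chromosome 10 from 8045378 to 8075198 (GRCh38, GENCODE annotation, plus strand). GATA3 had 585 CPM (interval 579 to 591) with vehicle and 332 CPM (327 to 336) with the cytokines. It was thus 1.76-fold lower with the cytokines, a log2 ratio of −0.82 (interval −0.84 to −0.80) and −0.62 relative to the median gene, and 11.0% of the measured genes had a lower ratio. The antisense transcript GATA3-AS1, whose locus overlaps the GATA3 gene on the other strand, has its own row and stood at 98.9 CPM with vehicle and 89.7 CPM with the cytokines. Whether the counting used strand is not given in the sources used here, so reads of this overlap could be split between the rows.

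SPDEF, an ETS factor of secretory epithelia (chromosome 6, 34537802 to 34556333, minus strand), had 220 CPM (216 to 224) with vehicle and 273 CPM (269 to 277) with the cytokines. The log2 ratio was 0.31 (0.28 to 0.35), or 0.51 relative to the median gene. FOXA1 (chromosome 14, 37589552 to 37596059, minus strand) had 157 CPM (154 to 160) with vehicle and 146 CPM (143 to 149) with the cytokines. Its log2 ratio of −0.10 (−0.14 to −0.06) changed sign with the scaling, to 0.073 with TMM factors and 0.089 with DESeq2 size factors, and was 0.09 relative to the median gene. The direction of the FOXA1 difference was thus set by how the libraries were scaled.

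FKBP5 (chromosome 6, 35573585 to 35728583, minus strand) was the scarcest member. It had 19.6 CPM (18.4 to 20.7) with vehicle and 13.0 CPM (12.2 to 13.9) with the cytokines. The log2 ratio was −0.59 (−0.72 to −0.46), or −0.39 relative to the median gene. With both libraries weighted to the phase shares of the vehicle library, the FKBP5 ratio was 0.087 in place of −0.59. This weighted value has no interval and draws in part on 19 FKBP5 UMIs of the 40 cytokine cells in G2M. In G1 cells alone FKBP5 was still lower with the cytokines, at −0.34 (−0.54 to −0.13). Whether the phases account for the change of sign was not tested.

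AZGP1 (chromosome 7, 99966720 to 99976042, minus strand) had 190 CPM (186 to 193) with vehicle and 1115 CPM (1107 to 1123) with the cytokines. The log2 ratio was 2.55 (2.53 to 2.58), or 2.75 relative to the median gene. This ratio ranked 99 from the top among the 9192 measured genes. By level AZGP1 ranked 702 among all genes of the vehicle library and 140 in the cytokine library. The neighboring pseudogene AZGP1P1 resembles AZGP1 in sequence and has no row in the matrix, so how its reads were counted cannot be seen from the counts.

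Counts of 3′ ends by UMI do not grow with transcript length, so the members could be ordered by level. In the vehicle library the order was GATA3, SPDEF, AZGP1, FOXA1 and FKBP5, and in the cytokine library AZGP1, GATA3, SPDEF, FOXA1 and FKBP5. The intervals of neighbors in either order did not overlap.

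The promoters of AZGP1 and SPDEF, the members with higher CPM in the cytokine library, are shown because they carry the sequence matches described next. Each window holds the 250 bases before the RefSeq start site of the gene on GRCh38.p14, written 5′ to 3′ on the gene's strand, with matches in capitals.
AZGP1, chr7:99976032-99976281, minus strand: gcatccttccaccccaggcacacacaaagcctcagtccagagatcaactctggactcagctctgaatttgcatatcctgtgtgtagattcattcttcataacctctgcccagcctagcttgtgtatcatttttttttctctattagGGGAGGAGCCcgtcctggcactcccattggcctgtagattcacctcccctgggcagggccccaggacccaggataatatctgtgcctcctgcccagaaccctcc
SPDEF, chr6:34556330-34556579, minus strand: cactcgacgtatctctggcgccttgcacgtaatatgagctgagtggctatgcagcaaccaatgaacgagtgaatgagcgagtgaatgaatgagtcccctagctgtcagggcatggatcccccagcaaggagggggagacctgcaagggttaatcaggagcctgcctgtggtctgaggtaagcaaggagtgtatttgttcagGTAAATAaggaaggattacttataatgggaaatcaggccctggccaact
The letters searched on both strands were TGTTTAC and TATTTAC for forkhead factors, AGATAA and TGATAA for GATA factors, AGAACA for the androgen response half-site, and GGGANNNNCC for NF-κB. AZGP1 held 1 NF-κB match, which began 104 bases before the start, and none of the other letters. SPDEF held 1 forkhead match, which began 49 bases before the start, and none of the others. Of 35116 promoter windows of this length, 22.6% held the NF-κB letters, 5.27% the forkhead letters, 14.6% the GATA letters and 12.4% the androgen half-site letters, so the NF-κB match was common among promoters. Of the 6 windows of GATA3, 2 held the NF-κB letters, at 19 and 67 bases before their starts. Neither the 1 window of FOXA1 nor the 2 windows of FKBP5 held any of the letters searched. A match of letters is a description and shows no binding.

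The libraries differed in cell cycle phase, so each member was next compared within a phase. A shared phase call does not fully match the cells, as MKI67 in G1 cells had 33.5 CPM with vehicle and 2.71 CPM with the cytokines. AZGP1 was higher with the cytokines in G1, 5.35-fold (215 to 1150 CPM), and in S, 4.60-fold (190 to 871 CPM). The 40 cytokine cells in G2M, fewer than the 50 set as a minimum, gave 4.25-fold. Among G1 cells 4.44% of 9005 measured genes were higher by 2-fold or more with the cytokines and 4.43% lower, and AZGP1 was again the only member past 2-fold. GATA3 was lower in both phases, from 629 to 325 CPM in G1 (log2 ratio −0.95, interval −0.98 to −0.92) and from 563 to 384 CPM in S (−0.55, interval −0.61 to −0.49). The median of all measured genes was −0.15 in G1 and −0.15 in S.

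The smaller differences of FOXA1 and FKBP5 were not the same in G1 and S, while that of SPDEF was similar in both. SPDEF had log2 ratios of 0.16 in G1 (252 to 281 CPM) and 0.12 in S (196 to 213 CPM), both below its ratio over all cells. FOXA1 was lower in the cytokine library in G1 (171 to 145 CPM, log2 ratio −0.24, interval −0.30 to −0.18) and higher in S (141 to 155 CPM, 0.14, interval 0.04 to 0.23). FKBP5 went from 14.2 to 11.2 CPM in G1 (−0.34, interval −0.54 to −0.13) and from 24.4 to 26.9 CPM in S, where the interval of −0.10 to 0.37 included 0.

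**Figure D2:**
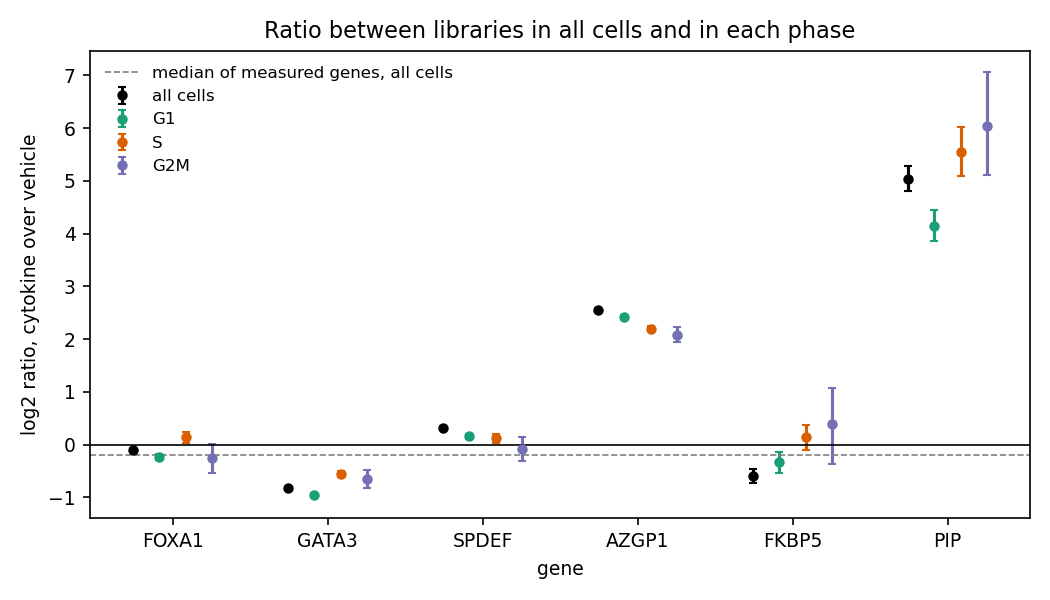
Log2 ratio of CPM, cytokine over vehicle, in all cells and in G1, S and G2M cells for the 5 members and PIP; bars are exact 95% intervals, and the G2M points rest on 40 cytokine cells. AZGP1 lies between 2.09 and 2.55 in every comparison, whereas FOXA1 and FKBP5 lie on both sides of 0. The FKBP5 points above 0 have intervals that include 0. SPDEF lies below 0 in G2M alone, at −0.085 with an interval of −0.32 to 0.14. The dashed line is the median of all measured genes at −0.20.

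Within a library the members followed the cell cycle in different ways. FKBP5 was higher in S than in G1 in both libraries, 1.72-fold in the vehicle library (log2 ratio 0.78, interval 0.58 to 0.99) and 2.40-fold in the cytokine library (1.26, interval 1.02 to 1.49). For scale, 3.78% of genes were higher in S than in G1 by 2-fold or more and 0.363% lower with vehicle, and 5.46% and 1.05% with the cytokines. FKBP5 in the cytokine library was the single member past 2-fold in these comparisons. SPDEF was lower in S than in G1, with log2 ratios of −0.36 and −0.40 in the vehicle and the cytokine library. AZGP1 was also lower in S, with −0.18 and −0.40. AZGP1 was lower still in vehicle G2M cells, which had 146 CPM against 215 CPM in G1 (−0.56, interval −0.64 to −0.48). FOXA1 and GATA3 were lower in S than in G1 in the vehicle library (−0.28 and −0.16) and higher in the cytokine library (0.10 and 0.24).

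The cell table also carries 6 clusters, which the authors numbered from 0 to 5 and which hold cells of both libraries. They were made from the same counts, so the levels in them are a description. AZGP1 was higher in the cytokine library in each cluster, from 4.36-fold in cluster 0 to 5.75-fold in cluster 1. GATA3 was lower in each, with log2 ratios from −1.04 in cluster 1 to −0.51 in cluster 2. SPDEF was higher in each, with log2 ratios from 0.12 to 0.38. FOXA1 ran from −0.45 in cluster 5 to 0.13 in cluster 2, and FKBP5 from −0.68 in cluster 4 to 0.17 in cluster 2. Cluster 2 was made of S and G2M cells except for 3 cytokine cells in G1.

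In the vehicle library AZGP1 was highest in clusters 0 and 3, at 295 and 292 CPM with overlapping intervals, followed by 187 CPM in cluster 5. Clusters 2, 1 and 4 followed at 159, 150 and 148 CPM, and neighbors among these overlapped. In the cytokine library clusters 3 and 0 again led, at 1445 and 1285 CPM, and cluster 4 was again the lowest at 738 CPM. No neighbors overlapped in counting error. These intervals leave out the spread from cell to cell, so the order of clusters with similar levels is not settled. FOXA1 had its lowest level in cluster 3 in both libraries (120 and 124 CPM) and its highest in cluster 4 (192 and 190 CPM). In the vehicle library the interval of cluster 4 overlapped that of cluster 5, at 187 CPM. Cluster 3, among the richest in AZGP1, was thus the poorest in FOXA1. FKBP5 was highest in cluster 2, at 26.7 CPM with vehicle and 30.0 CPM with the cytokines, and ranged from 12.9 to 19.6 CPM and from 9.48 to 13.3 CPM in the other clusters. SPDEF had its lowest level in cluster 2 in both libraries, 180 and 205 CPM. GATA3 varied least, from 539 to 640 CPM across the vehicle clusters.

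**Figure D3:**
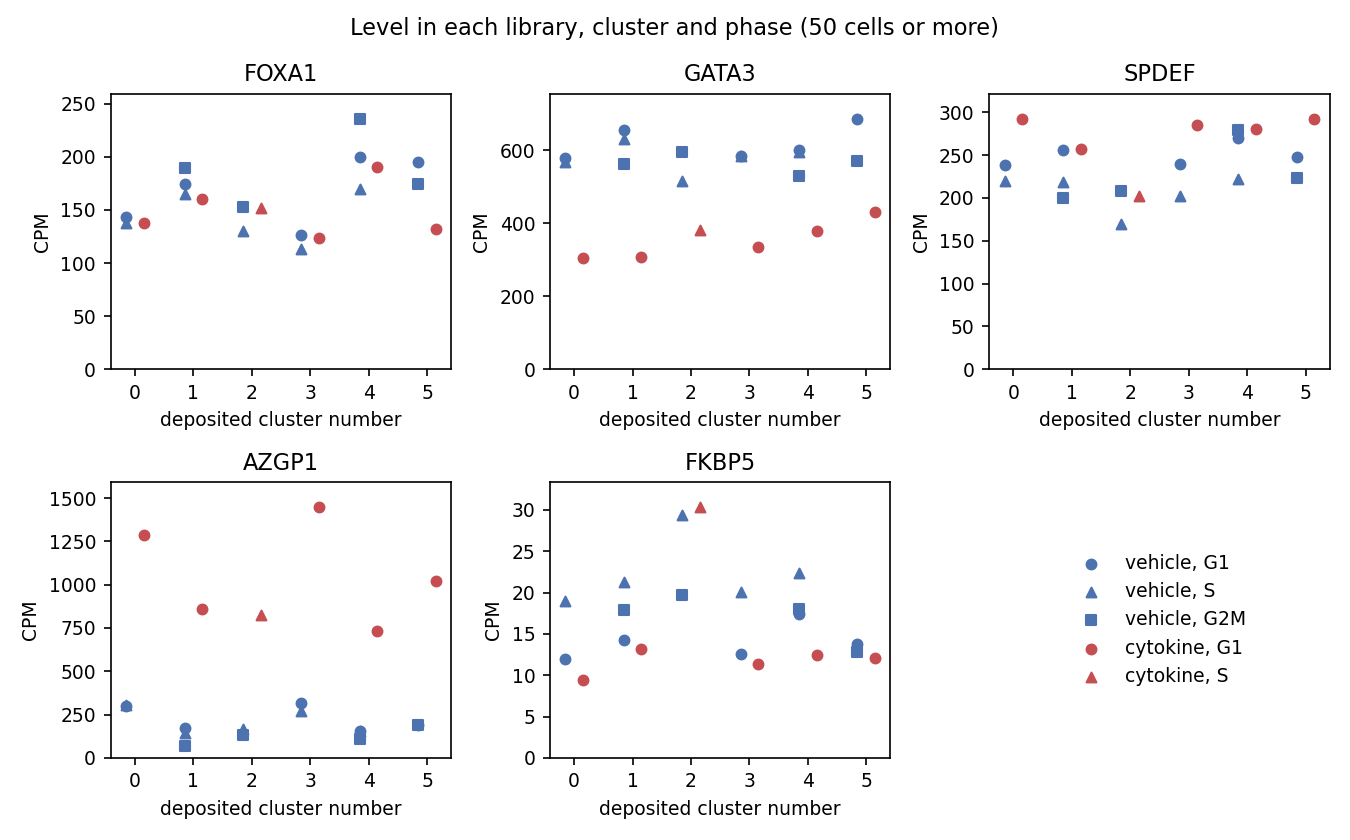
CPM of each member (vertical axes from 0, 1 panel per gene) in the 20 groups of library, deposited cluster and phase that hold 50 or more cells; color marks the library and shape the phase. AZGP1 lies between 65.5 and 317 CPM in the vehicle groups and between 730 and 1448 CPM in the cytokine groups, while GATA3 runs the other way, at 517 to 687 CPM and 305 to 432 CPM.

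Across the same 20 groups, the genes most like each member were found by Pearson's r of log2(CPM + 1) among 4086 or 4087 genes at 20 or more CPM in both libraries. The groups share 2 libraries, so r mostly follows the difference between libraries where that is large. AZGP1 was most like TMEM205 (r = 0.98), TPGS1 (0.98) and BST2 (0.97), an interferon-inducible membrane protein. These 3 genes were also higher by 2-fold or more with the cytokines, TMEM205 from 84.0 to 380 CPM. Their r values were between 0.85 and 0.90 within the vehicle groups and between 0.77 and 0.96 within the cytokine groups. GATA3 was most like ATP5MD (0.95), COX20 (0.95) and SLIRP (0.94), which serve mitochondrial respiration or mitochondrial RNA. Within the 14 vehicle groups these r values were between 0.27 and 0.58, and within the 6 cytokine groups between 0.70 and 0.81.

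FKBP5 was most like ICMT (0.94), ORAI1 (0.93) and HMGA1 (0.92). Their r values were between 0.92 and 0.94 within the 14 vehicle groups and between 0.97 and 0.99 within the 6 cytokine groups. Of those 6 groups, 5 hold G1 cells and 1 holds S cells, where FKBP5 was at 30.3 CPM against 9.46 to 13.2 CPM in the others, so the cytokine values rest on that 1 group. FOXA1 was most like MED13 (0.87), RBM47 (0.84) and BPTF (0.84), and SPDEF most like MAN1B1-DT (0.85), RFX5 (0.85) and DUSP4 (0.85). Between the members themselves, FOXA1 and AZGP1 had r = −0.68 in the vehicle groups and −0.88 in the cytokine groups, and SPDEF and FKBP5 −0.61 and −0.97. The last value rests on the same S group, where SPDEF was at 203 CPM against 257 to 293 CPM in the 5 groups of G1 cells.

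The difference in AZGP1 was found in nearly all cells. After thinning to 15000 UMIs per cell, 2586 vehicle and 3033 cytokine cells were kept, and 236 and 130 shallower ones were not. With AZGP1, 84.1% of vehicle cells (interval 82.6 to 85.5) and 99.6% of cytokine cells (99.4 to 99.8) had at least 1 UMI. Without thinning the shares were 89.8% and 99.8%. The median AZGP1 count was 2 UMIs per vehicle cell, with 0 and 6 at the 10th and 90th percentiles, and 15 per cytokine cell, with 5 and 30. A share of 96.7% of cytokine cells lay above the vehicle median and 85.0% above the vehicle 90th percentile.

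**Figure D4:**
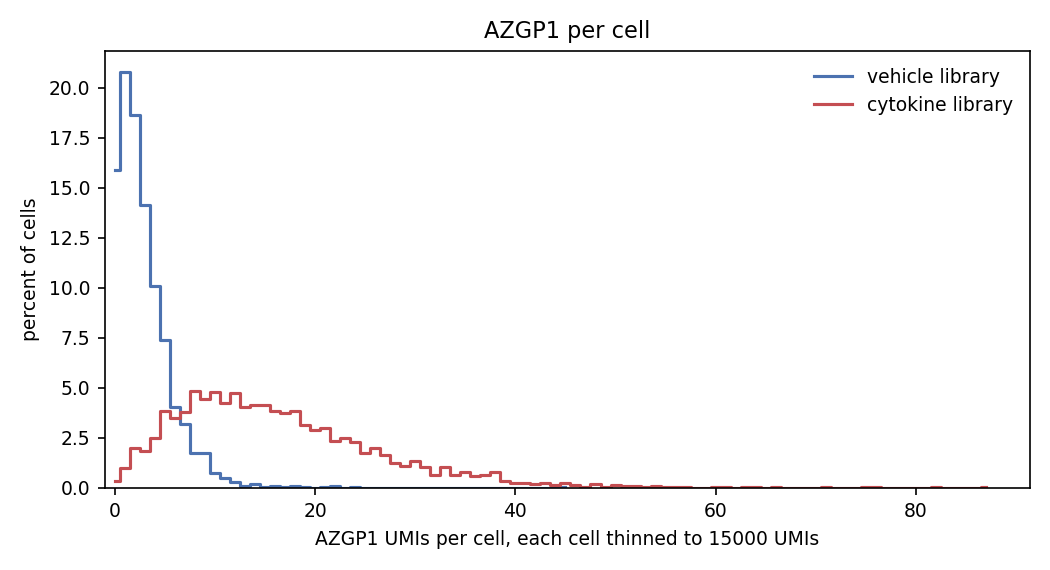
Percent of cells (vertical axis) at each number of AZGP1 UMIs per cell (horizontal axis), with each cell thinned to 15000 UMIs, in the vehicle and the cytokine library. The whole distribution lies further right in the cytokine library, with a median of 15 against 2 UMIs and a highest cell of 87 against 45 UMIs.

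By variance over mean, a measure that can grow with the level, AZGP1 stood above the other members. It had 2.75 in the vehicle library and 6.59 in the cytokine library, against a median of 1.08 and 1.09 over genes at 20 or more CPM. By the coefficient of variation, the spread relative to the mean, AZGP1 had 0.98 in the vehicle and 0.63 in the cytokine library, where GATA3 had 0.62, SPDEF 0.58, FOXA1 0.79 and FKBP5 2.32. GATA3 had a variance over mean of 1.94 and 1.95, FOXA1 of 1.45 and 1.40, and SPDEF of 1.30 and 1.40. FKBP5 had 1.06 and 1.05, at a mean of 0.279 and 0.195 UMIs per cell, where a modest spread between cells moves this measure little. A low mean alone did not hold it near 1, as PIP, at a mean of 0.0352 UMIs per vehicle cell, had 5.76. That value leans on few cells, as the highest cell held 20 PIP UMIs, so it is no yardstick for FKBP5.

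The transcription factors were present in most cells of both libraries. GATA3 UMIs were found in 99.8% of vehicle and 96.7% of cytokine cells, SPDEF in 93.9% and 97.1%, and FOXA1 in 86.6% and 84.9%. Without thinning these shares were 99.9% and 98.6% for GATA3, 97.1% and 98.6% for SPDEF and 92.6% and 92.5% for FOXA1. FKBP5 was found in 23.7% of vehicle cells (22.1 to 25.4) and 17.3% of cytokine cells (16.0 to 18.7), or 32.2% and 23.4% without thinning. The 4 immune and blood markers, which these cells should lack, were found in at most 2.67% of cells of either library. All 5 members were counted together in 16.0% of vehicle and 13.8% of cytokine cells, and 4 of them in 59.2% and 69.5%. Across cells of 1 library no pair of members had an r beyond 0.15 in size, which in counts this sparse is no finding.

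The members were then set beside lists of the genes around them. On the apocrine list, 13 of 24 genes were measured, 4 were higher by 2-fold or more with the cytokines and 0 lower, with a median log2 ratio of 0.26 against −0.20 over all measured genes. Beside AZGP1 these were PIP, KYNU, the kynureninase of tryptophan breakdown that the study itself followed in these libraries, and SERHL2, a hydrolase-like gene. PIP, the secreted protein known in pathology as GCDFP-15, went from 2.70 CPM (2.29 to 3.15) to 88.8 CPM (86.6 to 91.1), a 32.9-fold difference. SERHL2 went from 0.324 to 5.53 CPM and KYNU from 4.08 to 69.9 CPM. PIP, SERHL2 and KYNU were under 5 CPM with vehicle, so they counted as measured only through the cytokine library, where they were high. The count of 4 and the median of 0.26 rest in part on these genes. Among those that did not differ 2-fold, CLCA2 had 474 and 426 CPM, FGFR4 395 and 351 CPM, and TFAP2B, a transcription factor, 306 and 511 CPM.

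PIP was found in 2.20% of thinned vehicle cells (1.67 to 2.85), beside at most 1.43% (1.01 to 1.97) for an immune or blood marker in that library, and in 42.7% of thinned cytokine cells, beside at most 2.67%. Without thinning the shares were 3.08% and 49.6%. In the vehicle library 10 cells held 48.1% of all 158 PIP UMIs, and 1 of them held 37. In the cytokine library 10 cells held 7.86% of 6183 UMIs. PIP went with AZGP1 among cytokine cells: it was counted in 29.7% of those with 9 or fewer AZGP1 UMIs (26.6 to 32.9), in 41.9% of those between, and in 58.3% of those with 22 or more (54.7 to 61.8). The r between both genes was 0.34 across 3033 cytokine cells at equal depth. PIP was higher in the cytokine library within G1 (5.14 to 90.9 CPM), within S (1.57 to 73.3 CPM) and in each of the 6 clusters.

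The wider androgen response list had a median close to that of all genes. Of its 30 genes, 16 were measured, 2 were higher by 2-fold, AZGP1 and PIP, and 1 was lower, with a median of −0.13. As above, PIP was measured only through the cytokine library. The lower one was ELL2, an elongation factor at the limit of 2-fold (24.2 to 12.1 CPM), and it was no longer called with TMM or DESeq2 scaling. With a limit of CPM 1 in place of 5, 4 genes were higher, among them STEAP4 (0.102 to 2.90 CPM) and MAF (0.563 to 1.18 CPM). Both reached that limit only in the cytokine library. SORD, the sorbitol dehydrogenase, had 77.7 and 48.3 CPM, and CAMKK2, a kinase, 10.7 and 7.44 CPM. TSC22D3, a target of androgens and glucocorticoids, had 63.9 CPM with vehicle and 63.3 CPM with the cytokines. TMPRSS2 and SLC45A3, androgen targets in prostate, stayed under 5 CPM in both.

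Of 24 steroid receptor chaperones, all measured, none differed 2-fold, and the median was −0.15. FKBP4, another co-chaperone of steroid receptors, had 144 CPM with vehicle and 98.5 CPM with the cytokines. PTGES3, the p23 co-chaperone, had 295 and 176 CPM, PPP5C, a phosphatase of the complex, 26.8 and 16.9 CPM, and SGTA 33.2 and 21.0 CPM. Of 24 nuclear receptor coregulators, 23 were measured, 0 differed 2-fold, and the median was −0.39. Ratios below 0 were found in 18 of these 23, beside 6106 of all 9192 measured genes. Of the 5 coregulators with ratios above 0, PRMT1 had 74.8 CPM with vehicle and 119 CPM with the cytokines. Among the furthest were CARM1, an arginine methyltransferase, at 19.7 and 11.0 CPM, CTBP1, a corepressor, at 49.1 and 29.5 CPM, and KDM1A, a histone demethylase, at 22.9 and 14.2 CPM.

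FKBP5 is also a glucocorticoid target, and that list split. Of 18 genes 11 were measured, with a median of −0.01. CEBPD (6.38 to 33.0 CPM) and NFKBIA (79.4 to 1069 CPM) were higher by 2-fold or more with the cytokines, and NFKBIA stands also on the NF-κB list. The metallothioneins MT2A (2150 to 498 CPM) and MT1X (62.4 to 20.8 CPM) were at least 2-fold lower. The receptor gene NR3C1 had 29.6 and 25.5 CPM.

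Among luminal lineage transcription factors, 21 of 26 were measured, 1 was at least 2-fold higher and 1 lower, and the median was −0.10. CREB3L4 was the higher one (111 to 247 CPM) and GRHL3 the lower one (7.17 to 2.85 CPM). MYB had 11.2 and 5.86 CPM, and EHF, an ETS factor like SPDEF, 22.5 and 42.0 CPM. On the list of SPDEF and secretory genes, 14 of 20 were measured, 3 were at least 2-fold higher and 0 lower, and the median was 0.61. The trefoil factors TFF1 (60.8 to 1037 CPM) and TFF3 (13.0 to 45.7 CPM) and CREB3L4 were those 3. SPINT1, a protease inhibitor, had 82.8 and 163 CPM, and AGR2, a disulfide isomerase of secretory cells, 804 and 1359 CPM. Of 15 luminal structural genes, 14 were measured, 5 were at least 2-fold higher and 0 lower, and the median was 0.45. These were KRT7 (241 to 1523 CPM), KRT8 (330 to 1070 CPM), KRT18, KRT19 (741 to 1825 CPM) and CD24 (260 to 770 CPM).

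The proliferation genes were lower in the cytokine library, which held fewer cells in S and G2M. All 10 S phase genes and all 10 genes of G2 and M phase were at least 2-fold lower in the cytokine library, with medians of −2.27 and −3.11, and MKI67 went from 134 to 11.7 CPM. Within G1 cells MKI67 went from 33.5 to 2.71 CPM and within S cells from 113 to 48.5 CPM. In G2M, with 40 cytokine cells, it had 364 and 357 CPM. PCNA had 35.5 and 24.2 CPM in G1 and 193 CPM in S in both libraries. Cells with the same phase call were thus not fully alike between the libraries. The part of the proliferation genes in the ratios of the members over all cells was not tested beyond the values within phases given above.

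**Figure D5:**
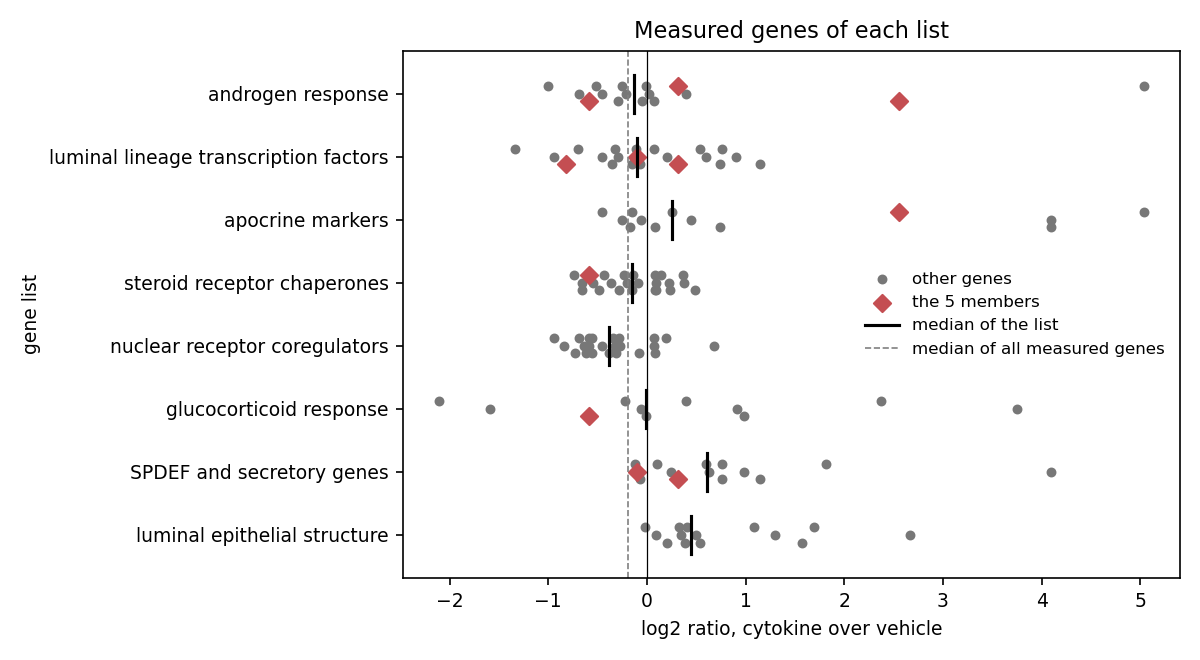
Log2 ratio of CPM, cytokine over vehicle (horizontal axis), of the measured genes of 8 lists (vertical axis), with the 5 members as red diamonds, other genes as grey points, the median of each list as a black bar and the median of all measured genes as the dashed line. The list of secretory genes (median 0.61), that of luminal structure (0.45) and the apocrine list (0.26) lie to the right of the overall median of −0.20, and the coregulators (−0.39) to its left. PIP, SERHL2 and KYNU of the apocrine list were measured only through the cytokine library.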

How the data were processed

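Per the labels and the study's methods, MDA-MB-453 cells grown for 24 hours were treated for 24 hours and loaded on a 10x Genomics 3′ kit, with 1 library per condition. The authors aligned reads to GRCh38 with Cell Ranger 3.1.0 and deposited UMI counts per gene and cell without normalization. They removed genes in fewer than 10 cells, and cells with 50000 or more UMIs, 3000 or fewer or 5000 or more genes, or 15% or more mitochondrial UMIs (Seurat 4.0.4). No cell lay outside these limits, while 328 genes of the deposited matrix had a UMI in fewer than 10 of its cells. The deposited cell table holds the percent of mitochondrial UMIs, the phase and the cluster number; how clusters were made is not given in the sources used here. Cells were assigned to libraries by its sample column. Summed counts of all 5985 cells equalled the cell table.

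UMIs were summed per group and divided by the group total (CPM, counts per 1000000). CPM have exact Poisson intervals, ratios exact conditional binomial intervals, and shares exact Clopper-Pearson intervals, all at 95%. Genes at CPM 5 or more in 1 group were measured. Thinning drew 15000 UMIs per cell without replacement. Doublets were not called or removed, and 8 barcodes occurred in both libraries. The calls were tested on simulated Poisson counts only. These have no spread between cells or cultures and no changes at the limit of 2-fold, so the calls were not checked against either. Scripts used Python 3.11.15, numpy 2.4.6, scipy 1.17.1, edgeR 4.0.16 and DESeq2 1.42.0, the last 2 for scaling factors only. Alternatives were these factors, other totals, a mitochondrial limit of 10%, G1 cells alone, means of per-cell CPM, phase weighting, CPM limits of 1 and 20, thinning to 7500 UMIs, none, and 2 UMIs per cell; leaving out shared barcodes was chosen after seeing the data.

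The 5 members and 15 gene lists were chosen with earlier results of these data known, and are not independent evidence. Named were the members, up to 4 other genes with the largest ratios per list, a fixed set (FKBP4, NR3C1, TSC22D3, PIP, KRT8, KRT18, EPCAM, MKI67) and the 3 genes most like each member. CLCA2, FGFR4, TMPRSS2, SLC45A3, STEAP4, MAF, CDH1, MUC1, PRMT1 and PCNA were named after their values were seen. Some genes under these rules are not reported here. Promoters are from RefSeq (GRCh38.p14), where all 5 members matched.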

Additional observations from a re-analysis of the deposited data

Results flagged for a closer look

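FOXA1 differed between the libraries in opposite directions in different cells. Its log2 ratio of cytokine over vehicle was −0.24 (interval −0.30 to −0.18) in G1 cells and 0.14 (0.04 to 0.23) in S cells, and 0.13 (0.02 to 0.24) in cluster 2, which holds S and G2M cells almost alone, against −0.45 (−0.62 to −0.28) in cluster 5. The same gene was lower in S than in G1 in the vehicle library, by a log2 ratio of −0.28 (−0.35 to −0.21), and slightly higher in S in the cytokine library, by 0.10 (0.0046 to 0.19). GATA3 shared this change of sign between S and G1, at −0.16 (−0.19 to −0.13) in the vehicle library and 0.24 (0.18 to 0.30) in the cytokine library. With 1 library per condition these differences were not tested, and their intervals cover counting error only. All lie under 1.5-fold, and FOXA1 changes sign between libraries with the scaling as well.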

How the results depend on the processing

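No paired analysis was possible because each condition is 1 library. TMM scaling added 0.18 and DESeq2 scaling 0.19 to each log2 ratio of cytokine over vehicle, which turned FOXA1 to 0.073 and 0.089 and gave GATA3 −0.64 and −0.63, SPDEF 0.49 and 0.51, AZGP1 2.73 and 2.75, and FKBP5 −0.41 and −0.40. Of the genes called at least 2-fold different, 36.4% were higher in the main analysis, 52.4% with TMM and 53.5% with DESeq2 scaling. Without ribosomal and mitochondrial genes in the totals FOXA1 had −0.16, GATA3 −0.87, SPDEF 0.26 and AZGP1 2.50. In G1 cells alone FOXA1 had −0.24, GATA3 −0.95, SPDEF 0.16, AZGP1 2.42 and FKBP5 −0.34, and 399 genes in place of 688 were at least 2-fold lower. With the vehicle phase shares in both libraries GATA3 had −0.70, SPDEF 0.10, AZGP1 2.27 and FKBP5 0.087. This changed the sign of FKBP5, but the weighted values have no interval. The mean of per-cell CPM gave AZGP1 2.50. A limit of CPM 1 gave 660 higher and 1060 lower genes, and CPM 20 gave 221 and 336. GATA3, SPDEF and AZGP1 kept their direction in every alternative run, and for no member did the difference in the share of cells with a UMI change sign with thinning to 7500 UMIs, without thinning or at 2 or more UMIs. ELL2 lost its call with TMM scaling, with DESeq2 scaling and without the cells of shared barcodes, and the CPM limit of 1 gave 4 androgen response genes higher in place of 2. The cause of these shifts beyond the construction of each alternative was not tested. With a single library per condition no spread between cultures is known. FKBP5, with 1146 and 904 UMIs, has the widest intervals of the members.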
